A study of Mus musculus with 71 samples.

Results

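The blood transcriptome of HOCl-induced mice labelled BPR21 was compared with that of HOCl mice without a treatment label. The groups were taken from the sample titles, and 24 of the 71 mice of the series entered the comparison (12 BPR21 and 12 HOCl mice), of which 23 have values in the normalized table, where HOCl mouse 8 is absent. The study induced a model of systemic sclerosis with hypochlorous acid (HOCl), asked what galectin-3 blocking antibodies change in it, and sequenced RNA of whole blood. BPR21 is known here by its label only: its nature, dose and route are not given in the sources used here, and the labels do not tie it to an anti-galectin-3 antibody of the design or to TD139, a galectin-3 inhibitor that was also given to HOCl mice and that no sample label names.

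The model used Balb/c AnNRj females aged 6 weeks at the start. The HOCl mice received intradermal HOCl on 5 days per week for 6 weeks. The BPR21 mice carry the same HOCl label plus the treatment label BPR21. For reference, 11 control mice are shown, which received PBS, together with the HOCl-induced groups labelled E07, D11 and D06 (n = 12 each). The genotype label of the controls also reads HOCL, so their group rests on the title. E07 and D11 are galectin-3 antibodies given subcutaneously at 20 mg/kg about every 5 days, and D06 is again known by its label only. The groups were kept in separate cages, so a cage and a treatment cannot be told apart. Each library is one mouse.

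Monocytes are circulating phagocytes that arise in the bone marrow under the control of the growth factor receptor Csf1r. Classical monocytes carry Ly6c and Ccr2, whereas patrolling monocytes carry Cx3cr1 and depend on the transcription factor Nr4a1. In whole blood their transcripts are measured together with those of lymphocytes, neutrophils, platelets and young red cells, so that fewer cells of a type and less RNA per cell cannot be told apart.

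The libraries held 11932855 to 15222080 counts on genes in HOCl mice and 12241849 to 14933401 in BPR21 mice. The mean log2 total differed by -0.006 (BPR21 minus HOCl; two-sided permutation test with 100000 resamples, p = 0.883), and the size factor by 0.070 (p = 0.655). Blood markers were present in every group, among them Cd3e of T cells, at 109 to 154 CPM (library-scaled counts with TMM factors) in BPR21 mice and 72.7 to 146 CPM in HOCl mice. The red cell list of 34 genes took 4.64% to 11.5% of all counts in BPR21 mice (median 8.50%), 6.45% to 14.4% in HOCl mice (median 10.1%) and 2.68% to 11.7% in control mice (median 6.01%). With this share as a covariate, 190 genes passed the test described below (85 higher, 105 lower), among them 61 of the 67 called without it.

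Within the BPR21 group some mice stood apart in the mean scaled level of marker lists, a value of 0 being the mean of both groups. BPR21 mice 7 and 11 had the highest neutrophil levels (1.56 and 1.53), where the other BPR21 mice lay between -0.97 and -0.28 and the highest HOCl mouse at 1.42. BPR21 mice 6, 10 and 12 had the highest heat shock levels (1.59, 0.85 and 1.65), against 0.26 in the highest HOCl mouse, and BPR21 mice 5 and 9 followed at 0.44 and 0.52. B cell levels spread from -2.42 to 1.04 in BPR21 mice and from -0.99 to 0.73 in HOCl mice. These mice carry no label that sets them apart, and the counts below are also given without mice 7 and 11 and without mice 6, 10 and 12, a choice made after seeing the data.

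**Figure D1:**
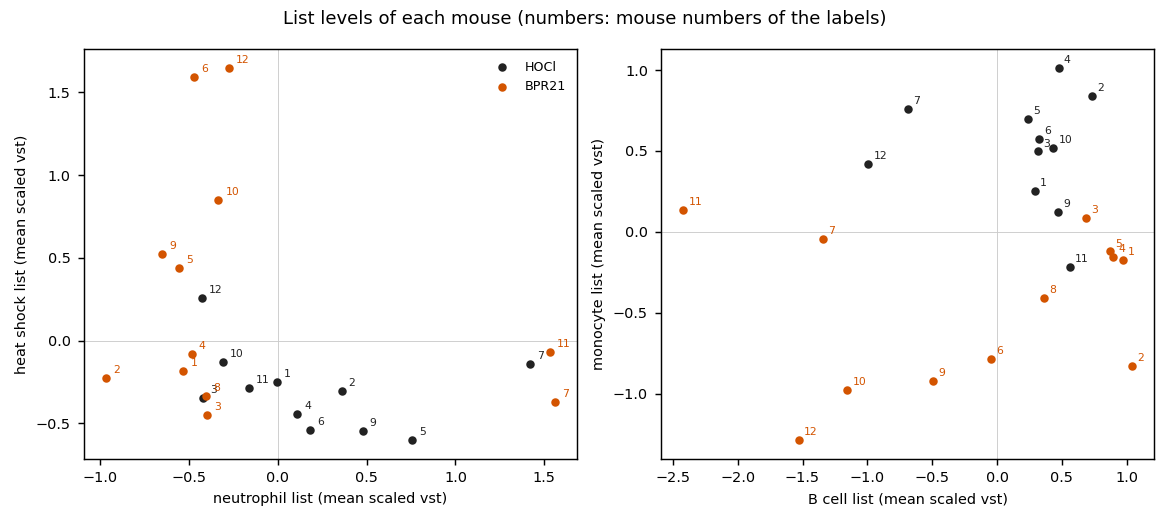
Each point is one mouse of the normalized table (12 BPR21, 11 HOCl), placed by the mean scaled vst value (no unit) of the neutrophil and heat shock lists on the left and of the B cell and monocyte lists on the right, with its mouse number. BPR21 mice 7 and 11 lie at 1.56 and 1.53 on the neutrophil axis, and BPR21 mice 6, 10 and 12 lie above every HOCl mouse on the heat shock axis.

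Of 10508 genes, 67 (0.638%) differed between BPR21 and HOCl mice, 25 higher (0.238%) and 42 lower (0.4%) in BPR21 mice, by limma on the deposited vst values where a call needed a Benjamini-Hochberg FDR up to 0.05 together with a change of 1.3-fold or more. The vst scale is log2-like and compresses low levels. At an unadjusted p under 0.05 there were 1474 genes (14%), 753 with higher (7.17%) and 721 with lower values (6.86%). The changes were small, with a median log2 fold change of 0.45 among the higher and -0.60 among the lower genes. For 49 of the 67 genes all 12 BPR21 mice lay past the HOCl median, and for the others at least 10 did. A call on these same mice largely fixes such counts, so they are a description and add no support. The groups did not overlap at all for 2 genes, Dna2 and Elmo2 (0.019% of all genes).

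A count-based test with 12 mice per group, edgeR with TMM factors, called 90 of 10503 genes (0.857%), 50 higher (0.476%) and 40 lower (0.381%), and 55 genes were called by both tests. At an unadjusted p, edgeR gave 8.55% of genes higher and 6.87% lower. DESeq2 called 255 (116 higher, 139 lower), and edgeR without TMM factors called 15 (3 higher, 12 lower). When counts were scaled by the library total only, limma called 0 genes. At an unadjusted p under 0.05 it gave 867 (8.25%, of which 5.3% higher and 2.95% lower). All 67 genes kept their direction there and 66 of them had p under 0.05. They were chosen by their values in these same mice, so this is not independent support. Without BPR21 mice 7 and 11 the limma count was 116 (28 higher, 88 lower), and without BPR21 mice 6, 10 and 12 it was 17 (6 higher, 11 lower). With 1 mouse left out it ranged from 36 to 91, and it fell by more than 1.5 times without HOCl mouse 2 (40), 4 (39), 5 (42), 6 (36) or 10 (43), or without BPR21 mouse 6 (44).

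**Figure D2:**
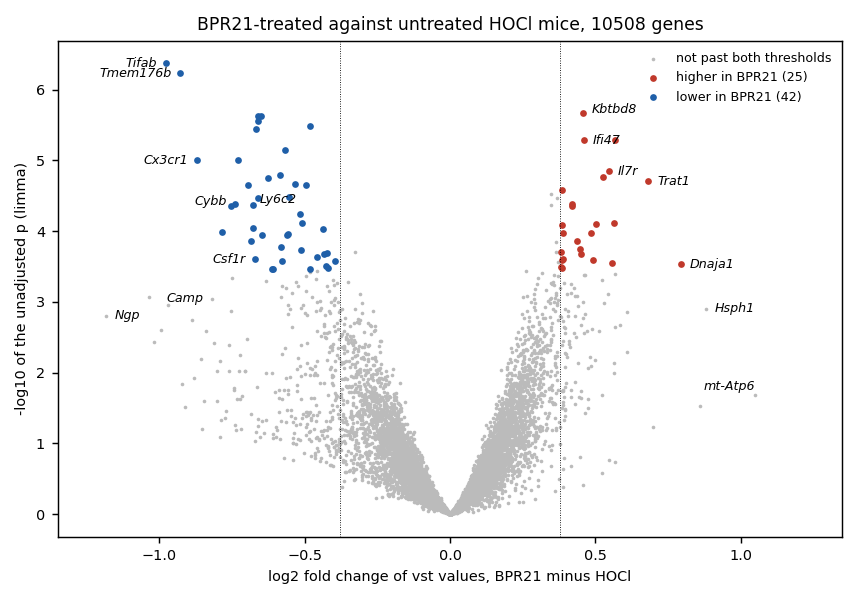
Each point is 1 of 10508 genes, with the log2 fold change of vst values (BPR21 minus HOCl) on the horizontal axis and -log10 of the unadjusted limma p on the vertical axis. Coloured points passed both thresholds (25 higher, 42 lower), and dotted lines mark the fold change of 1.3.

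Transcripts of monocytes were lower in BPR21 mice. Of the 18 genes of the monocyte list, 7 fell (Cx3cr1, Fcgr1, Mpeg1, Ly6c2, Csf1r, Nr4a1 and Ctss) and 0 rose. Over all genes, 0.4% fell. Values were lower for 16 of the 18, with a median log2 fold change of -0.47, whereas 50.3% of all genes had lower values, with a median of -0.001. With edgeR 6 of the 18 fell, beside 0.381% of all genes. Without BPR21 mice 7 and 11 the number was 10, and without mice 6, 10 and 12 it was 1, with a median of -0.57 and -0.40. In the mean scaled monocyte level, mice 7 and 11 were among the highest BPR21 mice (-0.04 and 0.13). Mice 6, 10 and 12 were among the lowest (-0.78, -0.98 and -1.29). Each removal therefore moves the list by itself, so neither count is evidence of its own. The list took 0.166% to 0.481% of all counts in BPR21 mice (median 0.343%), 0.263% to 0.613% in HOCl mice (median 0.443%) and 0.342% to 0.903% in control mice (median 0.659%).

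Cx3cr1, the fractalkine receptor of patrolling monocytes (GRCm39 chr9:119877749-119898945, minus strand), had vst values of 6.65 to 8.55 in BPR21 mice (median 7.87) and 7.86 to 9.08 in HOCl mice (median 8.85). All 12 BPR21 mice lay below the HOCl median and 6 of them below every HOCl mouse. The difference was 1.83-fold (log2 fold change -0.87, SE 0.16, FDR = 0.00808). Nr4a1, the nuclear receptor on which these cells depend (chr15:101151980-101172681), ranged from 7.57 to 8.29 in BPR21 mice (median 7.91) and from 8.04 to 9.09 in HOCl mice (median 8.49). It was 1.47-fold lower (-0.55, SE 0.11, FDR = 0.0139), with 8 BPR21 mice below all HOCl mice.

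Ly6c2, which encodes the surface protein of classical monocytes (chr15:74980003-74988467), ranged from 8.98 to 10.19 in BPR21 mice (median 9.69) and from 9.87 to 10.89 in HOCl mice (median 10.20). Of the BPR21 mice, 9 lay below every HOCl mouse, and the log2 fold change was -0.68 (SE 0.14, FDR = 0.0145). Ly6c2 shares much of its sequence with Ly6c1, so reads of the pair may be split between them. Ccr2, the chemokine receptor through which these monocytes leave the marrow, had a value of -0.75 but did not pass (FDR = 0.0828). Csf1r had medians of 9.77 in BPR21 and 10.39 in HOCl mice, with overlapping ranges of 9.10 to 10.45 and 9.84 to 11.04. Its log2 fold change was -0.67 (SE 0.16, FDR = 0.0434), and it passed in 9 of the 23 fits that left out 1 mouse.

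Fcgr1, the high affinity receptor for IgG (chr3:96190225-96201338), had a median of 7.55 in BPR21 mice (6.97 to 8.12) and 8.34 in HOCl mice (7.73 to 8.87). All 12 BPR21 mice lay below the HOCl median (-0.70, SE 0.14, FDR = 0.0113). Mpeg1, the pore-forming perforin-2 of phagocytes, fell by 0.68 on the log2 scale (FDR = 0.0249) and Ctss, a lysosomal protease of antigen-presenting cells, fell by 0.43 (FDR = 0.0478). The values of Cd14 (0.16) and Fcgr4 (0.06) were higher, and that of Treml4 was near 0 (-0.04). Cd14, the lipopolysaccharide co-receptor, reached 344 CPM in BPR21 mice against a median of 11.6, and without BPR21 mice 7 and 11 its log2 fold change was -0.33.

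**Figure D3:**
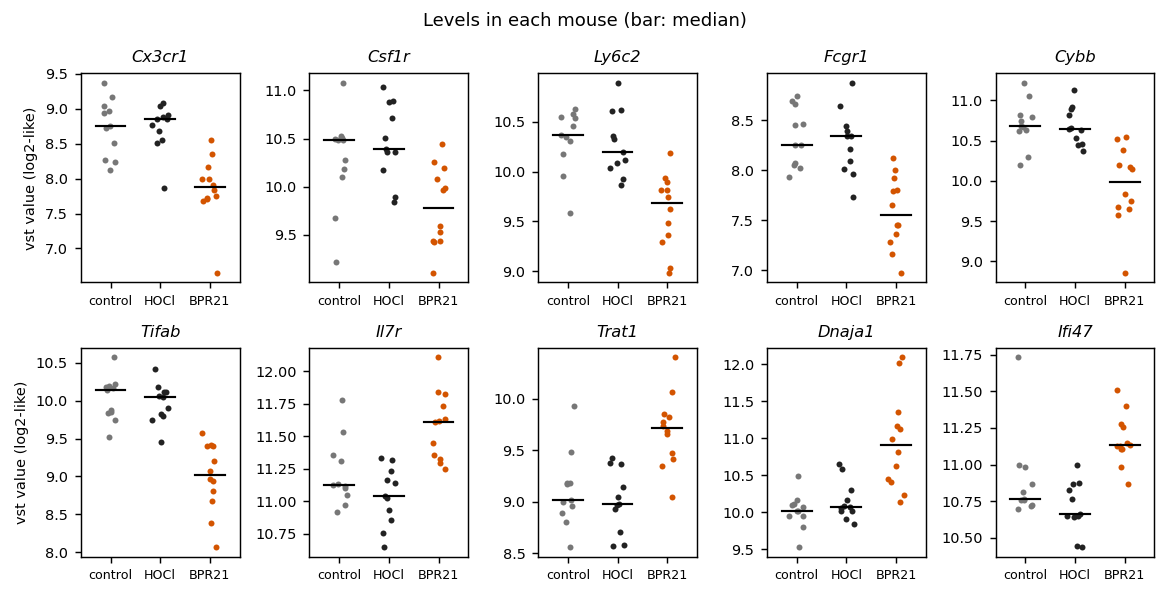
Deposited vst values (log2-like) of 10 genes in each control (n = 11), HOCl (n = 11) and BPR21 mouse (n = 12), with the median as a bar. For the upper row and Tifab the BPR21 median lies below both other medians, and for Il7r, Trat1, Dnaja1 and Ifi47 it lies above both.

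Promoters are shown for 2 monocyte genes that fell together, since both hold the letters GAGGAAGT, a core to which the myeloid factor PU.1 is known to bind. Each runs from 250 bases before to 50 after the transcription start of RefSeq (build GRCm38.p6), with the motif or its reverse complement in capitals.
Ctss (chr3:95526536-95526835, plus strand): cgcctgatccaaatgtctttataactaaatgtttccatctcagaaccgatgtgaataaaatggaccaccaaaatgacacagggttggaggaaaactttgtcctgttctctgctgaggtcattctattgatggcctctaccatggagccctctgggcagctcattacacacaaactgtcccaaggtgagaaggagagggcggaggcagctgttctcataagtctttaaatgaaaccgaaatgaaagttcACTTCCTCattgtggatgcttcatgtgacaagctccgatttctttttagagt
Ly6c2 (chr15:75111922-75112221, minus strand): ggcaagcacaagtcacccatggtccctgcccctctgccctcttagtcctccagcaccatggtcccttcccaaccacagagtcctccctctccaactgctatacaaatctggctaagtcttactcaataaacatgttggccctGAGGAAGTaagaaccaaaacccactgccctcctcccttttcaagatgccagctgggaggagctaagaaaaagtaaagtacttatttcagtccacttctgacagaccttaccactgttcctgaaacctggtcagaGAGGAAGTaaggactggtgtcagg
In Ctss the match lies on the opposite strand at bases 249 to 256, and in Ly6c2 on the same strand at bases 143 to 150 and 277 to 284. Counting both strands, the letters were found for 4 of the 14 monocyte genes with a promoter in the table (28.6%: Ly6c2 and Ctss, which fell, and F13a1 and Fcgr4, which did not pass, with values of -0.45 and 0.06), for 5 of 35 genes that fell (14.3%), for 1 of 18 genes that rose (5.56%) and for 997 of all 27025 genes (3.69%). Genes with several starts count once if any holds the letters. These matches are a description and were not tested.

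The lower genes with the largest changes outside this list were Tifab, Tmem176b, Ms4a6d, Plxnb2, Cybb, Dna2 and Lrp1. Tifab (chr13:56321514-56326814), a regulator of the TRAF6 pathway downstream of toll-like receptors, had vst values of 8.07 to 9.57 in BPR21 mice (median 9.02) and 9.45 to 10.42 in HOCl mice (median 10.04). In 11 of 12 BPR21 mice it lay below every HOCl mouse, and it was 1.97-fold lower (-0.98, SE 0.15, FDR = 0.0031). Tmem176b, a membrane protein of myeloid and dendritic cells, had a median of 8.19 in BPR21 mice (7.58 to 8.65) and 9.21 in HOCl mice (8.39 to 9.52). It was 1.90-fold lower (-0.93, SE 0.14, FDR = 0.0031), and its neighbour Tmem176a, whose annotated span overlaps it on the other strand, fell by 0.66 (FDR = 0.0139), so reads of the pair can be told apart only if strand was used in counting.

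Cybb, the catalytic subunit of the phagocyte NADPH oxidase (chrX:9301491-9354010), ranged from 8.86 to 10.54 in BPR21 mice (median 9.99) and from 10.37 to 11.13 in HOCl mice (median 10.64). The log2 fold change was -0.74 (SE 0.15, FDR = 0.0145), with 9 BPR21 mice below all HOCl mice. Ms4a6d fell by 0.78 (FDR = 0.0266), the semaphorin receptor Plxnb2 by 0.75 (FDR = 0.0145) and Lrp1, an endocytic receptor, by 0.69 (FDR = 0.0305). Dna2, a nuclease-helicase of DNA replication, was at 6.06 to 7.64 in BPR21 mice and 7.74 to 8.39 in HOCl mice, so the groups did not overlap (-0.73, SE 0.13, FDR = 0.00808). Its lowest BPR21 mouse was at 0 CPM and its median at 4.07 CPM, so few reads stand behind it.

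Of the other genes that fell, 8 are given here, chosen after their values were seen. Grn, the precursor of granulins, was lower by 0.66 on the log2 scale (FDR = 0.00472) and Psap, the precursor of lysosomal saposins, also by 0.66 (FDR = 0.00472). Psap ranged from 11.90 to 12.73 in BPR21 mice and from 12.45 to 13.41 in HOCl mice. Scarb1, a receptor for high density lipoprotein, was at -0.65 and the scavenger receptor Colec12 at -0.67 (FDR = 0.00472 for both). The macrophage glycoprotein Cd68 was at -0.51 (FDR = 0.0378), the exonuclease Pld4 at -0.63 (FDR = 0.011) and the glycosidase Gusb at -0.42 (FDR = 0.0388). Elmo2, an adaptor of engulfment and migration, fell by 0.48 (FDR = 0.00472) and did not overlap between groups, with 8.40 to 8.98 in BPR21 mice and 8.99 to 9.50 in HOCl mice.

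Compared with the control mice, shown as a description, the BPR21 median lay below the control median for all 42 lower genes, while the HOCl median lay above it for 26 of them and below it for 16. For Cx3cr1 the control median was 8.76, beside 8.85 in HOCl and 7.87 in BPR21 mice. Of the 25 higher genes, the BPR21 median lay above the control median for 24, while the HOCl median lay below it for 22 and above it for 3. These genes were chosen by their BPR21 and HOCl values, so where both medians lie beside the control follows in part from that choice. No share over all genes is given, and a move past the control level was not tested.

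Among the higher genes were several of T cells. Il7r, the receptor for interleukin-7 that keeps naive and memory T cells alive (chr15:9505874-9530262), had vst values of 11.25 to 12.11 in BPR21 mice (median 11.61) and 10.65 to 11.33 in HOCl mice (median 11.04). Of the BPR21 mice, 9 lay above every HOCl mouse, and the difference was 1.46-fold (log2 fold change 0.55, SE 0.10, FDR = 0.0106). Trat1, an adaptor that steadies the T cell receptor at the surface (chr16:48551137-48592447), was at 9.04 to 10.40 in BPR21 mice (median 9.71) and 8.57 to 9.42 in HOCl mice (median 8.98). It was 1.60-fold higher (0.68, SE 0.13, FDR = 0.0113).

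In the T cell list of 21 genes, 1 rose (Il7r) and 0 fell by limma, beside 0.238% of all genes that rose. With edgeR 2 rose and 0 fell, beside 0.476% of all genes that rose. Values were higher for 20 of the 21 (median 0.15). Of these, 9 had an unadjusted p under 0.05, beside 7.17% of all genes with higher values at that p. The 9 included Cd28 (0.39, FDR = 0.0594), Cd3g (0.35, FDR = 0.0594) and Cd3e (0.29, FDR = 0.128), a costimulatory receptor and parts of the T cell receptor complex. The lineage markers Cd4 and Cd8a had values of 0.14 (SE 0.11) and 0.04 (SE 0.09). Without BPR21 mice 6, 10 and 12 the limma count in the list was 0, with a median of 0.11. Named after their values were seen, the signalling adaptor Lat (0.39, FDR = 0.0266), and the cytokine Il2 (0.44, FDR = 0.0305) rose, as did the receptor segment Trbv17 (0.50, FDR = 0.023; edgeR FDR = 0.0862). Il2 was near the floor of the table, with medians of 1.01 CPM in BPR21 and 0.0579 CPM in HOCl mice, and edgeR did not call it (FDR = 0.338).

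The largest increase of a gene called by limma was that of Dnaja1, a co-chaperone that delivers clients to Hsp70 (chr4:40722056-40737149). Its vst values were 10.14 to 12.10 in BPR21 mice (median 10.91) and 9.85 to 10.66 in HOCl mice (median 10.07). All 12 BPR21 mice lay above the HOCl median and 7 above every HOCl mouse (1.74-fold, log2 fold change 0.80, SE 0.19, FDR = 0.0461). In the heat shock list of 15 measured genes, Dnaja1 alone rose and 0 fell by limma, beside 0.238% of all genes that rose. With edgeR 2 of the 15 rose and 0 fell, beside 0.476% of all genes that rose. Values were higher for 13 of the 15 (median 0.24). Hsph1, a nucleotide exchange factor of Hsp70, rose with edgeR (1.40, FDR = 0.0162) but not with limma (0.88, FDR = 0.0825). Its levels were 19.3 to 167 CPM in BPR21 mice and 13.4 to 26.6 CPM in HOCl mice.

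Other members did not pass, such as the Hsp40 Dnajb1 (0.61, FDR = 0.144), the adaptor Stip1 (0.58, FDR = 0.103) and the constitutive Hsp70 Hspa8 (0.45, FDR = 0.103), whereas Hspa4 had a value of -0.28. Without BPR21 mice 6, 10 and 12, which were chosen as the highest for these genes, 0 members passed and the median was 0.06. That choice lowers the list by itself, so this fit cannot show whether the list differs in the other mice. Ptges3, the p23 co-chaperone of Hsp90, lies outside the list and rose by 0.53 (SE 0.10, FDR = 0.011), with 9.87 to 10.76 in BPR21 mice and 9.35 to 9.98 in HOCl mice. The promoter of Hsph1 is shown because it holds GAANNTTCNNGAA, the repeat read by heat shock factors, in capitals here on the opposite strand at bases 287 to 299.
Hsph1 (GRCm38.p6 chr5:149636287-149636586, minus strand): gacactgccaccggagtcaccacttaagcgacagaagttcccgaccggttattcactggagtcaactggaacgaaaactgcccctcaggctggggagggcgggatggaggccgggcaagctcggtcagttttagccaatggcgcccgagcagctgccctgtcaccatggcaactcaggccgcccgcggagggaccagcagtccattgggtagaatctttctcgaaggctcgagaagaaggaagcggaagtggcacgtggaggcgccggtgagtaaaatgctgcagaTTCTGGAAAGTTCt
The repeat was found for 3 of 12 heat shock genes with a promoter in the table (Hspe1, Hspd1 and Hsph1), for 179 of all 27025 genes (0.662%), and for 0 of 18 genes that rose by limma.

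The remaining genes among the 12 largest increases were Rps27rt, Mat2a, Tmem123, Pde3b, Cyp2s1, Ifi47 and Kbtbd8. Mat2a, which makes the methyl donor S-adenosylmethionine, was at 9.88 to 11.07 in BPR21 mice and 9.46 to 10.04 in HOCl mice (0.56, SE 0.12, FDR = 0.023). Kbtbd8, an adaptor of a ubiquitin ligase, was at 0.46 (SE 0.08, FDR = 0.00472), with 11 of 12 BPR21 mice above every HOCl mouse and a median of 6.11 CPM. Tmem123 was at 0.56 (FDR = 0.0455), the phosphodiesterase Pde3b at 0.49 (FDR = 0.0434) and the cytochrome Cyp2s1 at 0.49 (FDR = 0.0266). Rps27rt (0.57, FDR = 0.0055) is a copy of the ribosomal gene Rps27, so reads of the pair may be split between them. The ribosomal protein list itself had 0 of 78 members past the thresholds, with higher values for 67 and a median of 0.10.

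Genes induced by interferon were examined in separate lists. Ifi47, an interferon-induced GTPase gene outside the list of 13 such genes, rose by 0.46 (SE 0.08, FDR = 0.0055), with 10.87 to 11.51 in BPR21 mice and 10.44 to 11.00 in HOCl mice. In the list 0 genes passed, while values were higher for 12 of 13 (median 0.20), for example Tgtp1 (0.39, FDR = 0.124) and Gbp4 (0.27, FDR = 0.199). In the list of 32 type I interferon-stimulated genes 0 passed as well, and values were lower for 25 (median -0.25), with Mx1 at -0.42 (FDR = 0.0672), Oas3 at -0.72 (FDR = 0.149) and Ifit2 at 0.39 (FDR = 0.267). Oas3 was lowest in BPR21 mouse 1 (8.53) and HOCl mouse 1 (9.17). These mice also had the lowest red cell share of their group (4.64% and 6.45%). A relation of Oas3 to this share was not tested. Outside both lists, and named after their values were seen, Ifi44l (-0.58, FDR = 0.0365), Ifi207 (-0.56, FDR = 0.0269) and Parp12 (-0.50, FDR = 0.0113) fell. The difference between the lists was not tested.

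**Figure D4:**
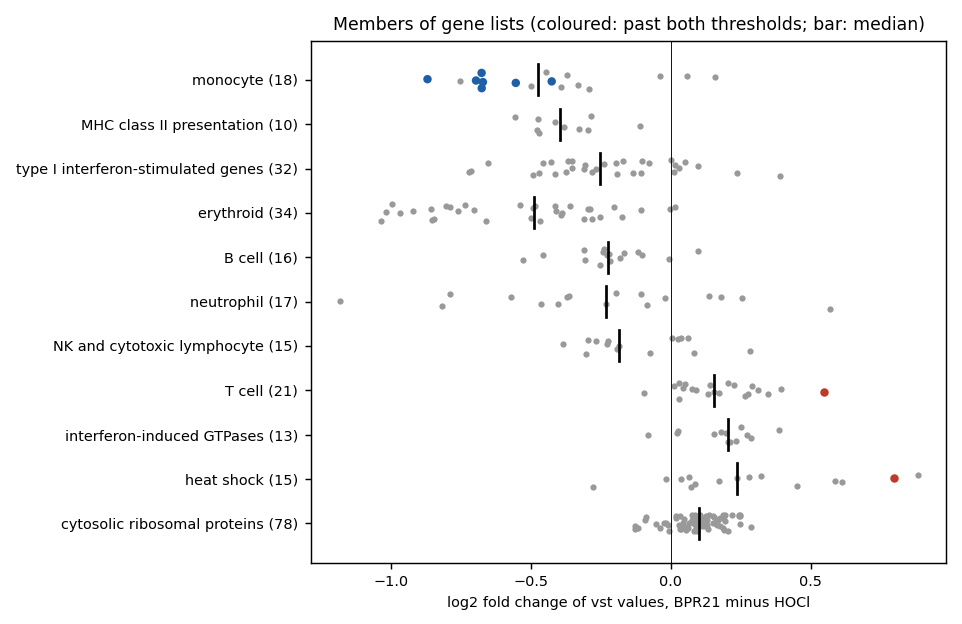
Log2 fold changes of vst values (BPR21 minus HOCl, horizontal axis) for the members of 11 gene lists, with the number measured in parentheses and the median as a bar. Coloured points passed both thresholds, 7 in the monocyte list and 1 each in the T cell and heat shock lists.

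Other blood cell lists held 0 called genes by limma. Over all genes, 6.86% had lower values at an unadjusted p under 0.05, the share beside which the counts below stand. The 34 red cell genes had lower values in 33 (median -0.49), 11 of them at an unadjusted p under 0.05, led by Ank1, the ankyrin of the red cell membrane (-1.03, SE 0.28, FDR = 0.0716), and Epb41, a linker of its membrane skeleton (-0.97, FDR = 0.077). All 10 MHC class II genes had lower values (median -0.40), 5 of them at an unadjusted p under 0.05, for instance H2-DMa (-0.48, FDR = 0.187) and the invariant chain Cd74 (-0.48, FDR = 0.351). The median was -0.23 without BPR21 mice 7 and 11, with 1 gene at that p, and also -0.23 without mice 6, 10 and 12, with 0. Of 16 B cell genes 15 had lower values (median -0.23), and without BPR21 mice 7 and 11 the number was 11 (median -0.02).

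The 17 neutrophil genes had lower values in 13 (median -0.23). Here edgeR called 2 lower, the granule genes Camp (-2.44, FDR = 0.019) and Ngp (-2.24, FDR = 0.0199), for which limma on the vst scale gave -0.82 (FDR = 0.0732) and -1.18 (FDR = 0.089). Camp, the precursor of cathelicidin, was at 0.341 to 4.91 CPM in BPR21 mice (median 1.14) and 1.46 to 51.0 CPM in HOCl mice (median 4.95). All 12 BPR21 mice lay below the HOCl median, and the HOCl mouse at 51.0 CPM stood far above the other HOCl mice. Without BPR21 mice 7 and 11, all 17 genes had lower values (median -0.57) and limma called 2. These mice were chosen as the highest of their group on this same list. Their removal lowers the list by itself, so this fit cannot show whether neutrophil genes fell.

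Lgals3, which encodes the study's target galectin-3 (chr14:47605208-47623624), had vst values of 9.94 to 11.23 in BPR21 mice (median 10.48) and 10.58 to 11.38 in HOCl mice (median 11.09). Of the BPR21 mice, 10 lay below the HOCl median and 8 below every HOCl mouse. The log2 fold change was -0.52 (SE 0.13), and it missed the threshold with limma (FDR = 0.0601) and with edgeR (-0.54, FDR = 0.0579). It passed in 4 of the 23 fits that left out 1 mouse. BPR21 mice 7 and 11 had the highest values of their group (11.19 and 11.23), and without them Lgals3 passed (-0.66, FDR = 0.0047), whereas without mice 6, 10 and 12 it did not (-0.41, FDR = 0.232). Leaving out the mice with the highest values lowers the group by itself, so the pass without mice 7 and 11 is not evidence of a fall. Of 7 measured genes in the galectin list 0 passed, among them Lgals1 (-0.26, FDR = 0.111) and Lgals9 (-0.25, FDR = 0.339). In the other lists, which cover metabolism, stress, signalling and the cell cycle, the called members were Cx3cr1, Fcgr1 and Nr4a1, already described, and Hfe, the iron regulator mutated in hemochromatosis (-0.43, SE 0.10, FDR = 0.0388). In all, 10 of the 67 called genes belonged to any of the 34 lists.

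BPR21 mice were then compared directly with the other treated HOCl groups. Against E07 mice, 763 genes differed (7.26%), 598 higher (5.69%) and 165 lower (1.57%) in BPR21 mice, and 26.7% had an unadjusted p under 0.05. Without BPR21 mice 6, 10 and 12 this count was 0, and without mice 7 and 11 it was 389. Scaling by library totals gave 4813 genes (152 higher, 4661 lower) and moved the median of all genes from -0.014 to -0.406, so the balance of directions rests on the scaling. The red cell list took 4.58% to 8.65% of all counts in E07 mice (median 5.67%), beside a median of 8.50% in BPR21 mice. The part of this gap in the 763 genes was not tested. The largest differences were Apol11b (1.80, SE 0.46, FDR = 0.0197), Ftl1-ps1 (1.45, SE 0.37, FDR = 0.0189) and mt-Atp6 (1.33, SE 0.38, FDR = 0.0292) on the higher side. On the lower side they were the B cell genes Ighd (-1.02, SE 0.24, FDR = 0.0173) and Fcer2a (-0.96, SE 0.26, FDR = 0.0238) and the MHC class II gene H2-Ab1 (-0.93, SE 0.21, FDR = 0.0173).

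Ighd, the constant region of IgD, was at 10.17 to 12.57 in BPR21 mice and 12.15 to 13.12 in E07 mice. Apol11b spread from 8.81 to 13.28 and from 8.22 to 11.57. Ftl1-ps1 is named as a copy of the ferritin gene Ftl1, so reads of the pair may be split between them. The gene mt-Atp6, encoded by mitochondrial DNA, was at 7.98 to 11.18 in BPR21 mice and 7.79 to 10.34 in E07 mice. In both groups no mouse lay between 8.32 and 9.97, so its difference is not an even shift of all mice. Of the 67 genes called against HOCl mice, 17 also passed against E07 mice, where Il7r was at 0.46 (SE 0.10, FDR = 0.0173), Dnaja1 at 0.77 (SE 0.18, FDR = 0.0173) and Fcgr1 at -0.50 (SE 0.12, FDR = 0.0175).

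Against D06 mice, 6 genes differed (0.0571%), Il7r higher (0.00952%) and, lower (0.0476%), Camk1, Aif1, Camp, Crip1 and Gm21188, of which Crip1 and Gm21188 lie outside the rule for named genes and were added after their values were seen. At an unadjusted p under 0.05 there were 8.94% of all genes, 4.41% higher and 4.53% lower. With edgeR 7 genes passed, without BPR21 mice 7 and 11 also 7, all lower, and without mice 6, 10 and 12 only 1, also lower, so Il7r was called in neither of these subsets. Scaling by library totals gave 0 and moved the median of all genes from 0.010 to 0.168. Il7r was at 11.25 to 12.11 in BPR21 and 10.56 to 11.59 in D06 mice (0.58, SE 0.11, FDR = 0.0373). Camk1, a calcium-dependent kinase, was at 8.51 to 9.31 in BPR21 and 9.21 to 10.00 in D06 mice (-0.69, SE 0.12, FDR = 0.022). Aif1, a calcium-binding protein of monocytes and macrophages, had a difference of -0.68 (SE 0.13, FDR = 0.0373), with ranges of 6.46 to 7.55 and 7.47 to 8.43. Camp differed by -1.19 (SE 0.24, FDR = 0.0495).

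Against D11 mice 0 genes passed with limma or edgeR, and 621 (5.91%) had an unadjusted limma p under 0.05 (630 with edgeR), 2.6% higher and 3.31% lower. The differences of the leading genes were -0.44 (SE 0.14) for Cx3cr1, -0.53 (SE 0.16) for Tifab, 0.37 (SE 0.10) for Il7r and 0.54 (SE 0.21) for Dnaja1, and a p that missed the threshold does not show equal levels.

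Each treated group was also set beside the same HOCl mice, which these comparisons share. For Cx3cr1 the log2 fold change from HOCl mice was -0.87 in BPR21, -0.83 in D06, -0.43 in D11 and -0.36 in E07 mice. For Fcgr1 it was -0.70, -0.29, -0.33 and -0.19 in the same order, and for Tifab -0.98, -0.55, -0.44 and -0.45. For Il7r it was 0.55 in BPR21, -0.04 in D06, 0.18 in D11 and 0.09 in E07 mice. For Dnaja1 it was 0.80, 0.54, 0.25 and 0.03. In the direct tests, Il7r passed against E07 and D06 mice, and Cx3cr1, Fcgr1, Tifab and Dnaja1 passed against E07 mice.

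**Figure D5:**
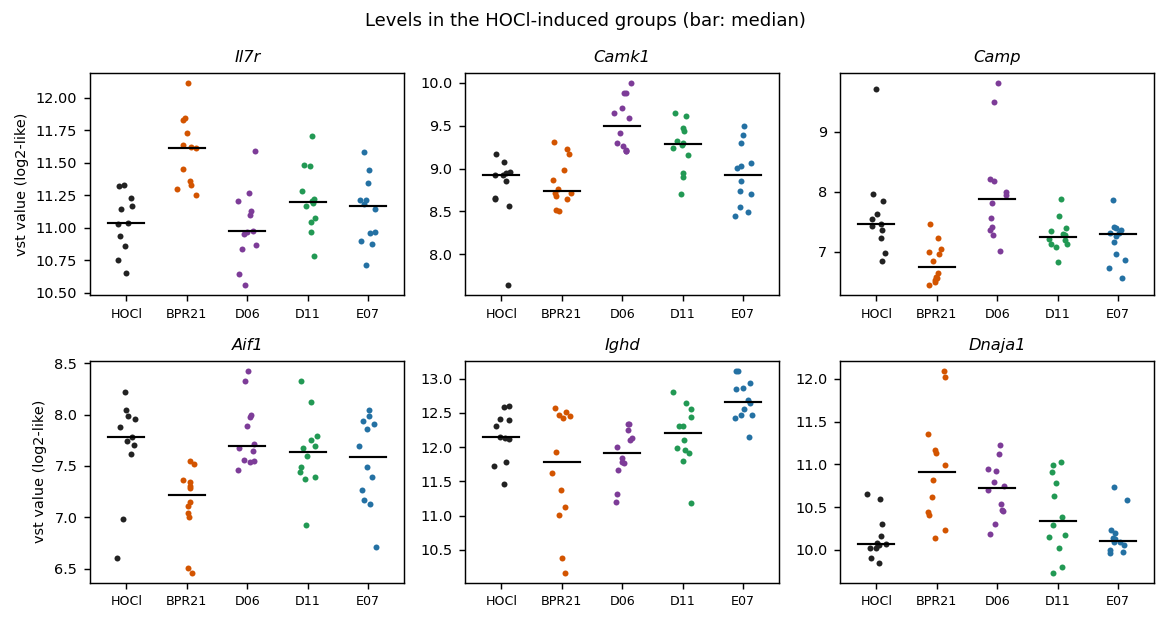
Deposited vst values (log2-like) of 6 genes in each HOCl (n = 11), BPR21, D06, D11 and E07 mouse (n = 12 each), with the median as a bar. Il7r has its highest and Camp and Aif1 their lowest median in BPR21 mice, and Dnaja1 ranges from 10.14 to 12.10 there.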

How the data were processed

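Whole-blood RNA of each mouse was stabilised, depleted of globin, selected for poly A, and sequenced from stranded libraries. Per the labels and the study's methods, the authors trimmed reads with Cutadapt, aligned them to mm39 with STAR and counted them with featureCounts, which gave the deposited whole-number counts of 55416 genes in 71 mice. The authors then applied the variance-stabilising transformation (vst) of DESeq2 and kept protein-coding genes above a low-expression filter, which gave the deposited log2-like values of 10508 genes in 70 mice. The versions of Cutadapt, STAR and featureCounts and the strand setting are not given in the sources used here. The 1492 rows without a gene name stayed out of all steps.

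The main test was limma 3.58.1 on the vst values (12 BPR21, 11 HOCl mice), after the study's methods, with Benjamini-Hochberg adjustment over all genes, an FDR up to 0.05 and a 1.3-fold change. The second was the quasi-likelihood test of edgeR 4.0.16 on the deposited counts with TMM factors (12 and 12 mice, 10503 genes). Each was tested on simulated data. DESeq2 1.42.0, other scalings, filters, a replicate block, a red cell covariate, all 6 groups in one fit and leaving out mice were alternatives. Total-count scaling used log2(CPM + 1). No pair of libraries held identical counts. Coordinates are those of GRCm39, and promoters are from RefSeq (GRCm38.p6).

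The genes named are Lgals3, members of 34 lists, the called genes ranked 1 to 12 by size of change in each direction by limma, ranked 1 to 5 by edgeR and ranked 1 to 3 against each treated group, plus those stated to be added after their values were seen. The members and lists were chosen with earlier results of these data known.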

Additional observations from a re-analysis of the deposited data

Results flagged for a closer look

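In tests of the difference itself (limma on vst values), BPR21 mice differed from E07 mice in 763 genes and from D06 mice in 6. Against D11 mice 0 passed, with 621 at an unadjusted p under 0.05 and 0 with edgeR. The first count was 0 without BPR21 mice 6, 10 and 12, and the second was 1.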

How the results depend on the processing

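The limma count of 67 genes became 148 with all 6 groups in one fit, 190 with the red cell share as a covariate, 0 with total-count scaling, 116 without BPR21 mice 7 and 11 and 17 without BPR21 mice 6, 10 and 12. All 67 genes kept their direction in these fits, which reuse the mice that chose them and so give no independent support. It was 74 by FDR alone and 65 with trend and robust variances or with each mouse centred on its median. With 1 mouse left out it ranged from 36 to 91, and 32 genes were called in all 23 such fits. The edgeR count of 90 became 255 with DESeq2, 277 with all 6 groups, 50 with all genes that had any count, 15 with library totals only, 208 without mice 7 and 11 and 27 without mice 6, 10 and 12, and ranged from 56 (without BPR21 mouse 6) to 133 with 1 mouse left out. It was 59 without HOCl mouse 2 and 58 without HOCl mouse 4. The 763 genes against E07 became 4813 with total-count scaling, 389 without mice 7 and 11 and 0 without mice 6, 10 and 12. The 6 genes against D06 became 0 with total-count scaling and 1 without mice 6, 10 and 12. The 10 called list members became 26 with all 6 groups, 0 with total-count scaling, 19 without mice 7 and 11 and 1 without mice 6, 10 and 12. The causes were not tested, other than that subsets hold fewer mice.

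With the replicate number as a block, limma called 21 genes against HOCl, 5 of them list members, edgeR called 49, and 2 passed against D06. No pairing of the mice by number was seen, though this check cannot exclude it. Deviations of the 11 pairs correlated at -0.21 to 0.61, 2 of them over 0.1, and 1 mouse correlated best with its own number.

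Some values that were not called changed sign. Apol11b (-0.26) was 0.29 with the covariate and 0.11 with edgeR, and Cd8a (0.04) was -0.0022 with the covariate. Treml4 (-0.04) was 0.029 with total-count scaling and 0.0025 without mice 6, 10 and 12. Without mice 7 and 11, Cd14 (0.16) was -0.33, Fcgr4 (0.06) was -0.12 and Il1r2 (0.57) was -0.046. With 1 mouse left out, Camk1 ranged from -0.032 to 0.12, Cd14 from -0.19 to 0.26, Fcgr4 from -0.027 to 0.15 and Treml4 from -0.076 to 0.011.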

Other observations

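Outside the normalized table, edgeR tested 2412 further genes of the count table and called 7. Myof, a membrane repair protein, was lower in BPR21 mice (-1.93, FDR = 0.0244), with medians of 1.03 CPM in BPR21, 4.13 CPM in HOCl and 4.26 CPM in control mice (CPM here by library total, without TMM factors). Slc8a1, the sodium-calcium exchanger, was also lower (-1.26, FDR = 0.0378), with medians of 1.68, 4.42 and 4.96 CPM in the same order. The 5 higher entries were Gm10123 (0.53), Gm9396 (1.19), Gm10275 (0.81), Bambi-ps1 (0.64) and Rps23-ps1 (0.65). Entries named as pseudogenes can share reads with near-identical genes, so these values are uncertain. These genes were named after their values were seen.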
